A study of Homo sapiens with 24 samples.

Results

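This account concerns 8 transcription factor genes that build and pattern the pancreas, PDX1, PTF1A, NKX6-1, SOX9, HNF4A, GATA4, GATA6 and FOXA2, out of 19820 protein-coding genes of the annotation. They were chosen by name as pancreatic progenitor and lineage factors, and the rule used no measured value, although earlier results of these data were known. The cells were PANC-1, an epithelioid line established from a carcinoma of the human pancreatic duct. All cells had been transfected with an siRNA, either a control (siControl) or one against PHF13 (siPHF13), a reader of H3K4me3. Groups were siControl without TGFβ, siControl with TGFβ at 10 ng/ml for 48 h (siControl+TGFβ) and siPHF13 with the same TGFβ treatment (siPHF13+TGFβ). Chromatin immunoprecipitation with sequencing had been done for H3K4me3, H3K27ac and H3K27me3 in 2 libraries per group, which gave 18 peak lists. The cells came from 1 tumour line, and there was no siPHF13 group without TGFβ, so depletion was compared only under TGFβ. Nothing in the labels says that the libraries of a group came from separate cultures, so the spread between them may be technical.

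FOXA2, GATA4, GATA6 and HNF4A are endodermal factors, of which FOXA2 and the GATA proteins can bind closed chromatin and act early in the foregut. PDX1 and SOX9 mark the multipotent progenitors of the pancreas, PTF1A later drives the acinar fate and NKX6-1 the β-cell fate. In the adult, SOX9 stays on in ducts and PDX1 mainly in islets. H3K4me3 is found at promoters, H3K27ac at active promoters and enhancers, and H3K27me3 is placed by Polycomb repressive complex 2 on silenced developmental genes. A promoter that carries H3K4me3 together with H3K27me3 is called bivalent or poised.

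For each gene, the bases covered by peaks were counted within 5 kb to either side of its annotated transcription start sites (TSSs), and in the flank from there to 50 kb. The rank of a peak is the percentage of peaks in the same list with a lower −log10 q. Values are given for siControl, siControl+TGFβ and siPHF13+TGFβ in this order, with replicate 1 before replicate 2. The lists labelled siPHF13+TGFβ carry the tag NCT in their peak names, the study's abbreviation for its control siRNA with TGFβ, and those labelled siControl+TGFβ carry 3AT. Groups follow the labels. The study's peak numbers for its own group names match the labels for both siControl+TGFβ lists and for siPHF13+TGFβ replicate 2 of every mark. They do not match for siPHF13+TGFβ replicate 1, whose deposited lists are shorter. The deposited H3K27me3 list of siControl replicate 1 (98211 peaks) is also shorter than the study's number. Directions between siControl+TGFβ and siPHF13+TGFβ are right only if the labels are. siPHF13+TGFβ replicate 1 gave the shortest list for every mark (27869 H3K4me3, 6004 H3K27ac and 59573 H3K27me3 peaks, against 30770 to 39202, 19413 to 36104 and 98211 to 165717 in the other lists). The H3K27me3 list of siControl replicate 2 was the widest, with 292.8 Mb against 48.6 to 191.2 Mb. PHF13 itself, the target of the siRNA, carried H3K4me3 in 6 of 6 lists (2205 to 3084 bp), but marks on its gene do not measure its depletion.

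The 8 genes fell into separate chromatin patterns. H3K4me3 lay near the TSSs of PDX1, NKX6-1, SOX9, GATA4, GATA6 and FOXA2 in all 6 lists, as it did for 72.7% of coding genes. H3K27ac lay near none of the 8 in all 6 lists, against 20.9% of coding genes. siPHF13+TGFβ replicate 1 had no H3K27ac peak near any of them, and SOX9 and FOXA2 had H3K27ac in all 5 other lists. H3K27me3 lay near PTF1A, NKX6-1, HNF4A, GATA6 and FOXA2 in all 6 lists, against 21.9% of coding genes. HNF4A had H3K27me3 and no H3K4me3, SOX9 and PDX1 had H3K4me3 and no H3K27me3, and NKX6-1, GATA6 and FOXA2 had both. At FOXA2, 0 bp lay under both marks together.

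**Figure D1:**
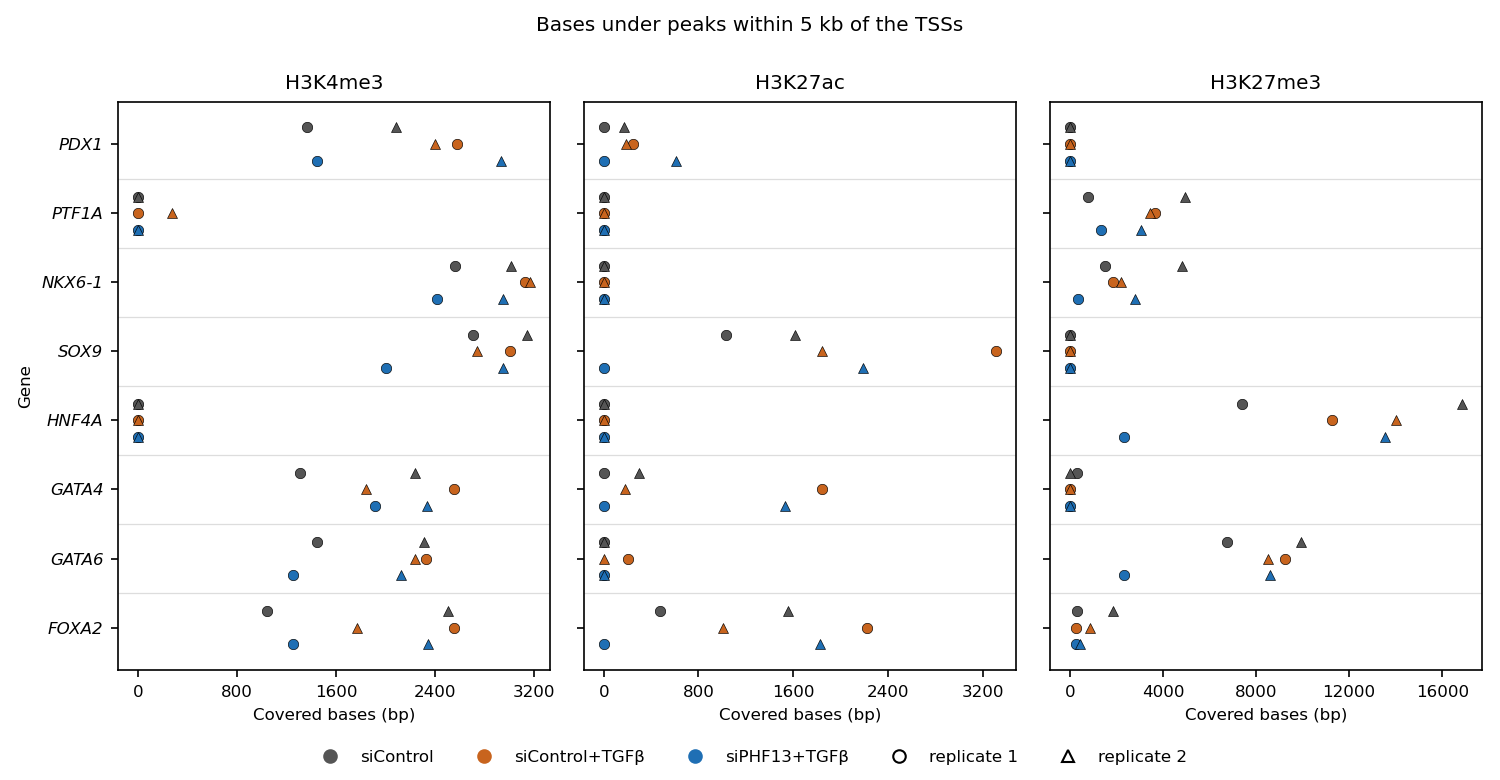
Bases covered by peaks within 5 kb of the TSSs (x axis, bp) of each gene (y axis) in each list; colours are groups, circles replicate 1 and triangles replicate 2. HNF4A sits at 0 for H3K4me3 and between 2329 and 16862 bp for H3K27me3, while SOX9 reaches 3317 bp for H3K27ac and sits at 0 for H3K27me3.

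To set the sequence beside these patterns, the 250 bases before the TSS of the canonical transcript were read from GRCh37 (hg19) for 3 of the genes, which show the pattern with H3K27me3 and no H3K4me3 (HNF4A) and the pattern with both marks (NKX6-1, GATA6). They are printed 5′ to 3′ on the strand of the gene, and capitals mark each CpG (the letters CG, which read the same on both strands). The windows lie at chr20:42984089-42984338 (plus strand, HNF4A), chr4:85420446-85420695 (minus strand, NKX6-1) and chr18:19749300-19749549 (plus strand, GATA6). None of these windows overlapped an annotated exon of its own gene.
HNF4A: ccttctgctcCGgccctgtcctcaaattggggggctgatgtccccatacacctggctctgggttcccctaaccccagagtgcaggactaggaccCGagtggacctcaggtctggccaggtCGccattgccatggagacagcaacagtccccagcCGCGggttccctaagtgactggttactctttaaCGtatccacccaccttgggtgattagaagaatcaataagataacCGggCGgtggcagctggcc
NKX6-1: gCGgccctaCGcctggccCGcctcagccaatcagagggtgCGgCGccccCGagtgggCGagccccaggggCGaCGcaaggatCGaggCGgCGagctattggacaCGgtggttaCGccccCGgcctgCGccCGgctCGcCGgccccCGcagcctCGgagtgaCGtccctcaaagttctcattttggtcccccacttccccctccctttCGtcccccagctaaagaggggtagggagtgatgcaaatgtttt
GATA6: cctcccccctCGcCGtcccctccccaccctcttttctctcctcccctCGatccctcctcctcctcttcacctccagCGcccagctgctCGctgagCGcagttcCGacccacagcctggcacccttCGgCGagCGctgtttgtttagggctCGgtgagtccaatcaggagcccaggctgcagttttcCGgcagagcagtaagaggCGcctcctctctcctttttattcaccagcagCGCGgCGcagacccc

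The HNF4A window held 8 CpGs, at the 26.9th percentile of 19862 such coding-gene windows (median 18 CpGs, with at least 1 CpG in 97.1%). GATA6 had 16 CpGs and NKX6-1 23, at the 43.8th and 64.8th percentiles. All 250 bases of the HNF4A window lay under H3K27me3 in 6 of 6 lists. In contrast, all 250 bases of the NKX6-1 window lay under H3K4me3 in 6 of 6 lists and none under H3K27me3. The GATA6 window was mixed, with every base under H3K4me3 in 4 lists and none in 1, and some base under H3K27me3 in 3 lists.

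FOXA2, a winged-helix pioneer factor of the endoderm, lies on chromosome 20 (22561636 to 22566093, minus strand, ENSG00000125798). H3K4me3 near its TSSs covered 1043 and 2502 bp with siControl, 2553 and 1771 bp with siControl+TGFβ, and 1253 and 2346 bp with siPHF13+TGFβ. H3K27ac covered 472 and 1560, then 2228 and 1004, then 0 and 1829 bp in the same order. For both marks the replicates of every group lay further apart than any pair of group means, and all groups overlapped. H3K27ac lay mainly over the transcribed part (22562902 to 22564955, including exons), and its strongest peak ranked above 38.5% to 73.0% of its list in the 5 lists that had one. H3K27me3 covered 318 and 1850, then 287 and 850, then 257 and 445 bp at the edge of the window, with no TSS inside a domain in any list and 0 bp under H3K4me3 as well. In the flank, H3K4me3 was found in 6 of 6 lists at the start of the lncRNA LINC00261 (22558204 to 22559974) and in an intron of it (22548814 to 22550213). FOXA2 thus had H3K4me3 and H3K27ac over its gene body, and H3K27me3 only away from its TSSs.

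GATA4, a zinc-finger factor of endoderm and heart, lies on chromosome 8 (11534468 to 11617511, plus strand, ENSG00000136574) and has 7 annotated TSS positions in 3 separate windows. No list had a peak of any mark in the window of its first TSSs. H3K4me3 covered 1311 and 2236, then 2550 and 1840, then 1911 and 2337 bp over the other windows, in regions at 11549853 to 11550989 and 11561216 to 11562921 that each held a TSS. H3K27ac covered 0 and 298, then 1845 and 178, then 0 and 1530 bp, and was high in siControl+TGFβ replicate 1 and siPHF13+TGFβ replicate 2 only. Further H3K27ac lay in the introns of GATA4, and the most frequent of these regions (11583936 to 11585176, 22205 bp from the nearest TSS) was present in 5 of 6 lists with 276 and 310, then 1241 and 451, then 0 and 874 bp. H3K27me3 near GATA4 was limited to 314 bp in siControl replicate 1.

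GATA6, which acts beside GATA4 in pancreas formation, lies on chromosome 18 (19749550 to 19782491, plus strand, ENSG00000141448). It differed from GATA4 in its H3K27me3, which covered 6772 and 9951, then 9246 and 8529, then 2332 and 8590 bp near the TSSs, the 95.0th percentile of coding genes by the mean over the 6 lists. Its strongest H3K27me3 peak ranked above 62.3% of its list in siPHF13+TGFβ replicate 1 and above 93.2% to 98.0% in the other lists. H3K4me3 covered 1448 and 2312, then 2328 and 2234, then 1252 and 2124 bp, in a region over the TSS (19748640 to 19751064) in 6 of 6 lists. H3K27ac was found only in siControl+TGFβ replicate 1, over 204 bp. When broad peaks at most 1 kb apart were joined into domains, a domain of 12455, 29970, 21958 and 13459 bp held both TSSs in the 4 siControl and siControl+TGFβ lists. In siPHF13+TGFβ, replicate 1 had no domain over a TSS and replicate 2 had one of 3322 bp over 1 of the 2 TSSs. These counts depend on the joining. In siControl replicate 1 both TSSs lay in joined gaps between peaks, and in siControl+TGFβ replicate 2 the first TSS did. In siPHF13+TGFβ replicate 2 the gap at the first TSS, from −458 to 1279 bp, was too long to be joined. Between 772 and 1687 bp lay under H3K4me3 and H3K27me3 together in the 4 pairings of siControl lists, 1287 to 1579 bp in siControl+TGFβ, and 0 to 387 bp in siPHF13+TGFβ. The 2 pairings with none used the short H3K27me3 list of siPHF13+TGFβ replicate 1, and with that of replicate 2 the overlap was 45 and 387 bp. Peaks of separate libraries can overlap without both marks being on the same nucleosome.

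HNF4A, a nuclear receptor of liver, gut and pancreas, lies on chromosome 20 (42984339 to 43061485, plus strand, ENSG00000101076). It is transcribed from a downstream promoter, P1, used in liver, and from an upstream one, P2, used in the pancreas. Its windows around them held no H3K4me3 and no H3K27ac in any list. H3K27me3 covered 7396 and 16862, then 11247 and 14019, then 2329 and 13530 bp, the 98.1st percentile of coding genes by the mean over the 6 lists. This was the highest H3K27me3 cover among the 8 genes in 5 of the 6 lists, and in siPHF13+TGFβ replicate 1 it was 3 bp below that of GATA6. The 2 windows of HNF4A together spanned 20270 bp and the window of GATA6 11345 bp, so cover and percentile also depend on window length. The upstream HNF4A window alone was above GATA6 only in siControl+TGFβ replicate 2 (8712 against 8529 bp). The upstream window (42979339 to 42989445) held 4090 and 9428, then 6789 and 8712, then 2329 and 7137 bp, and the downstream window (43024879 to 43035041) 3306 and 7434, then 4458 and 5307, then 0 and 6393 bp. Both windows thus held H3K27me3 in every list but siPHF13+TGFβ replicate 1, in which the upstream window alone had it, and the 250 bases before the first downstream TSS lay under it in 2 of 6 lists. Its strongest peak ranked above 89.6% to 97.1% of its list in all 6 lists. In the flank, H3K27me3 covered 30929 and 76694, then 56551 and 65273, then 6451 and 55929 bp, with domains of up to 27680 bp, the longest of which began in the gene and ran past its end. H3K4me3 appeared in an intron (43016819 to 43017816, at −12063 bp from the downstream TSSs) in 5 of 6 lists. H3K27ac in the flank of HNF4A lay at the start of another gene, FITM2, and not near HNF4A.

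PDX1, the homeodomain factor that opens pancreas development and later controls insulin, lies on chromosome 13 (28494137 to 28500450, plus strand, ENSG00000139515). H3K4me3 near its TSS covered 1369 and 2087 bp with siControl, 2573 and 2396 bp with siControl+TGFβ, and 1446 and 2934 bp with siPHF13+TGFβ. Both siControl+TGFβ lists were above both siControl lists, and the siPHF13+TGFβ lists lay on either side of them. The region over the TSS (28493907 to 28495797) was present in 6 of 6 lists, and a region upstream of it (28491460 to 28492554), within 1 kb of the start of the lncRNA PLUT, in 5. H3K27ac covered 0 and 173, then 244 and 188, then 0 and 609 bp, in weak upstream peaks that ranked above 1.7% to 23.2% of their lists. H3K27me3 was at 0 near the TSS in 6 of 6 lists. The stronger H3K27ac of the locus lay 33268 bp downstream (28527405 to 28529018), over the start of the lncRNA LINC00543, with 0 and 628, then 1551 and 717, then 0 and 1542 bp. The longest H3K27me3 domain within 50 kb of PDX1 lay at the neighbouring homeobox gene CDX2, a gut factor whose TSS is 49315 bp away, and was up to 4536 bp long. H3K27me3 in the flank away from other coding TSSs covered 955 and 7699, then 874 and 1112, then 172 and 2365 bp.

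SOX9, an HMG-box factor of progenitors and ducts, lies on chromosome 17 (70117161 to 70122557, plus strand, ENSG00000125398). It had the most H3K27ac of the 8 genes in every list in which any of them had it, with 1030 and 1612 bp with siControl, 3317 and 1845 bp with siControl+TGFβ, and 0 and 2186 bp with siPHF13+TGFβ. Both siControl+TGFβ lists were above both siControl lists, and the siPHF13+TGFβ lists were far apart. The mean over the 6 lists was at the 92.2nd percentile of coding genes, and the strongest peak ranked above 41.5% to 76.8% of its list. H3K27ac started at the TSS (70117179 to 70118427, 5 of 6 lists) and continued over the gene, where a further region (70120205 to 70121447) was found in both siControl+TGFβ lists only, with 1106 and 398 bp. H3K4me3 covered 2707 and 3144, then 3008 and 2739, then 2001 and 2947 bp, and H3K27me3 was at 0 in 6 of 6 lists. A distal region 30133 bp downstream (70147294 to 70148529), in an intron of the lncRNA SOX9-AS1, had H3K27ac over 584 and 1189, then 1234 and 1158, then 0 and 1042 bp. The same place had H3K4me3 in 6 of 6 lists (70147166 to 70148489). SOX9 thus carried H3K4me3 and H3K27ac at its promoter and 30 kb away, and no H3K27me3 near its TSS.

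**Figure D2:**
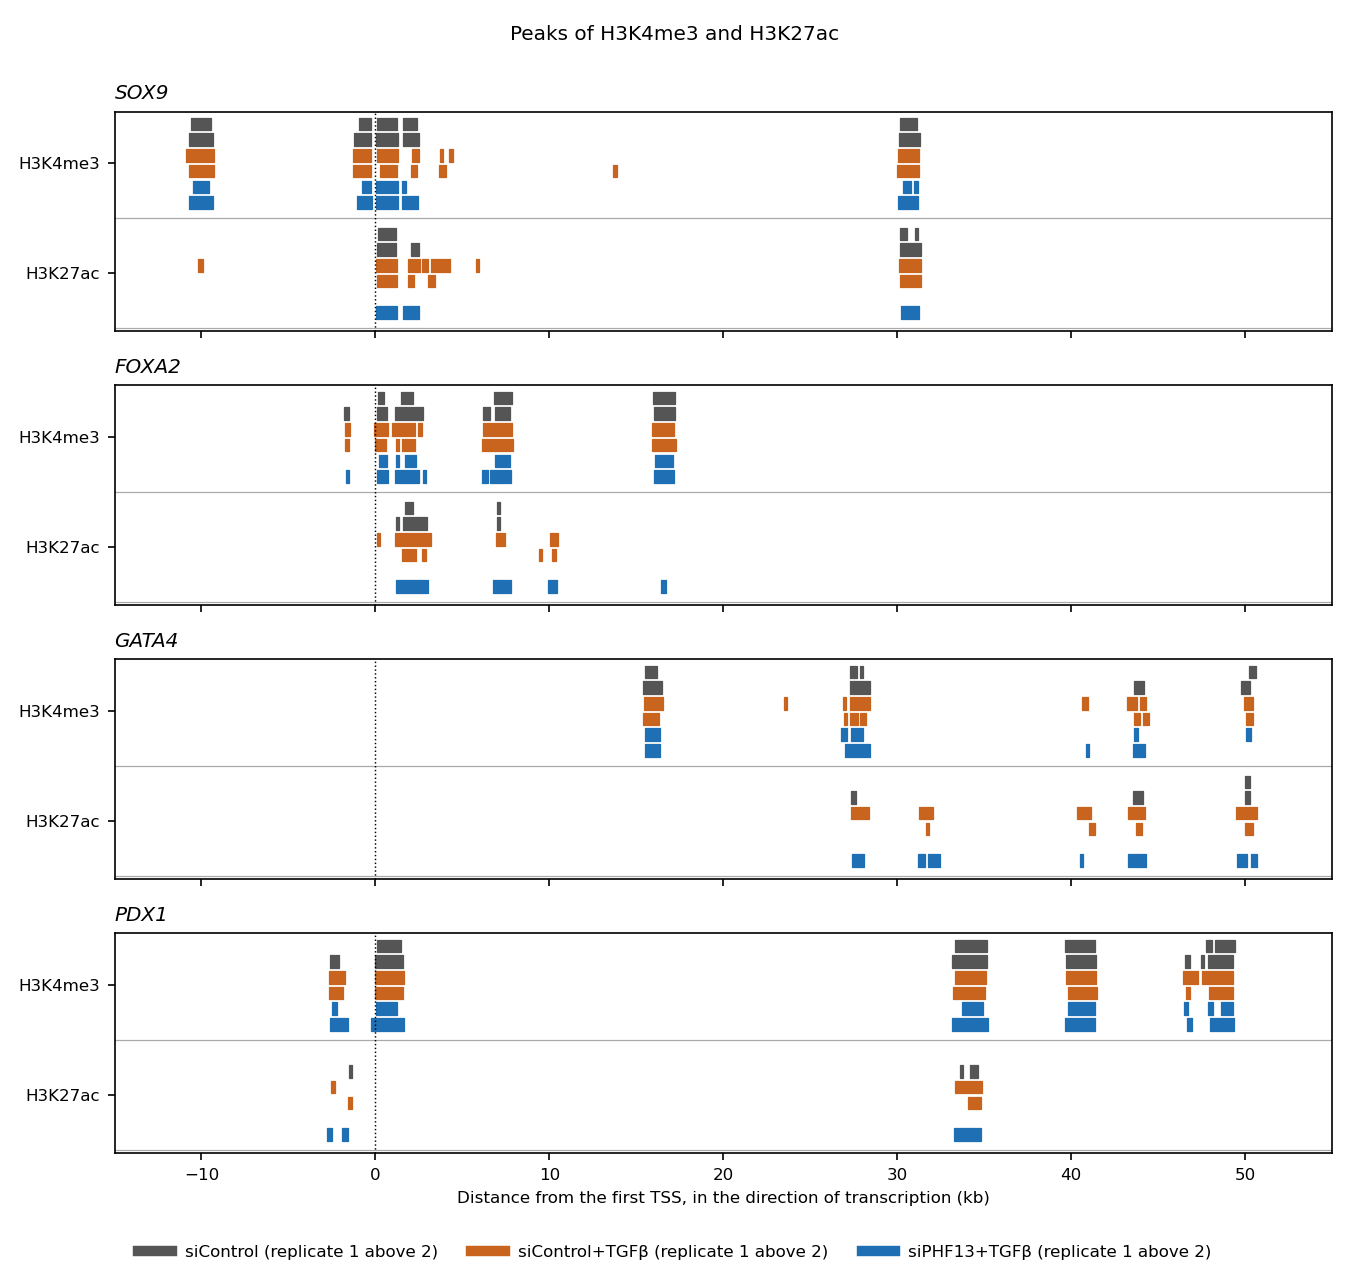
Peaks of H3K4me3 and H3K27ac along SOX9, FOXA2, GATA4 and PDX1 (x axis, distance from the first TSS in kb; y axis, 1 row per list), with colours for the groups and replicate 1 above replicate 2. The H3K27ac row of siPHF13+TGFβ replicate 1 is empty for all 4 genes, and H3K4me3 at SOX9 lies to either side of the TSS.

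PTF1A, the helix-loop-helix factor of acinar cells, lies on chromosome 10 (23481241 to 23483174, plus strand, ENSG00000168267). H3K27me3 near its TSSs covered 777 and 4967 bp with siControl, 3656 and 3441 bp with siControl+TGFβ, and 1361 and 3042 bp with siPHF13+TGFβ. Both siPHF13+TGFβ lists were below both siControl+TGFβ lists, and the siControl lists spanned all the others. A domain held a TSS in 5 of 6 lists and all 6 annotated TSS positions in 4. H3K4me3 near the TSSs was found only in siControl+TGFβ replicate 2, over 273 bp, in a peak that ranked above 16.0% of its list. H3K27ac was at 0 within 50 kb in 6 of 6 lists. An intergenic H3K4me3 region 5172 bp downstream (23487462 to 23488635), just outside the window, was present in 6 of 6 lists with 197 to 1174 bp.

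NKX6-1, a homeodomain repressor needed for β-cells, lies on chromosome 4 (85413138 to 85420445, minus strand, ENSG00000163623). H3K4me3 covered 2560 and 3014, then 3123 and 3169, then 2416 and 2946 bp, the highest mean over the 6 lists among the 8 genes (2871 bp). Both siControl+TGFβ lists were above all others. Its strongest H3K4me3 peak ranked above 65.1% to 71.3% of its list, and above 89.6% in siPHF13+TGFβ replicate 1. H3K27me3 covered 1523 and 4830, then 1869 and 2216, then 332 and 2792 bp, and H3K27ac was at 0 within 50 kb in 6 of 6 lists. The H3K4me3 lay in a region over the canonical TSS (85419314 to 85421213). Another region lay near the end of the gene (85413625 to 85414910, 3193 bp from the nearest TSS). No TSS lay inside an H3K27me3 domain in any list, and in 5 of 6 lists the longest domain spanned the 3′ end of the gene. Between 91 and 1279 bp lay under both marks in siControl, 136 to 481 bp in siControl+TGFβ, and 0 to 994 bp in siPHF13+TGFβ. The NKX6-1 window thus held both marks, as that of GATA6 did, but its canonical TSS lay under H3K4me3 alone. The other annotated TSS of NKX6-1 (85418103) lay under neither mark.

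**Figure D3:**
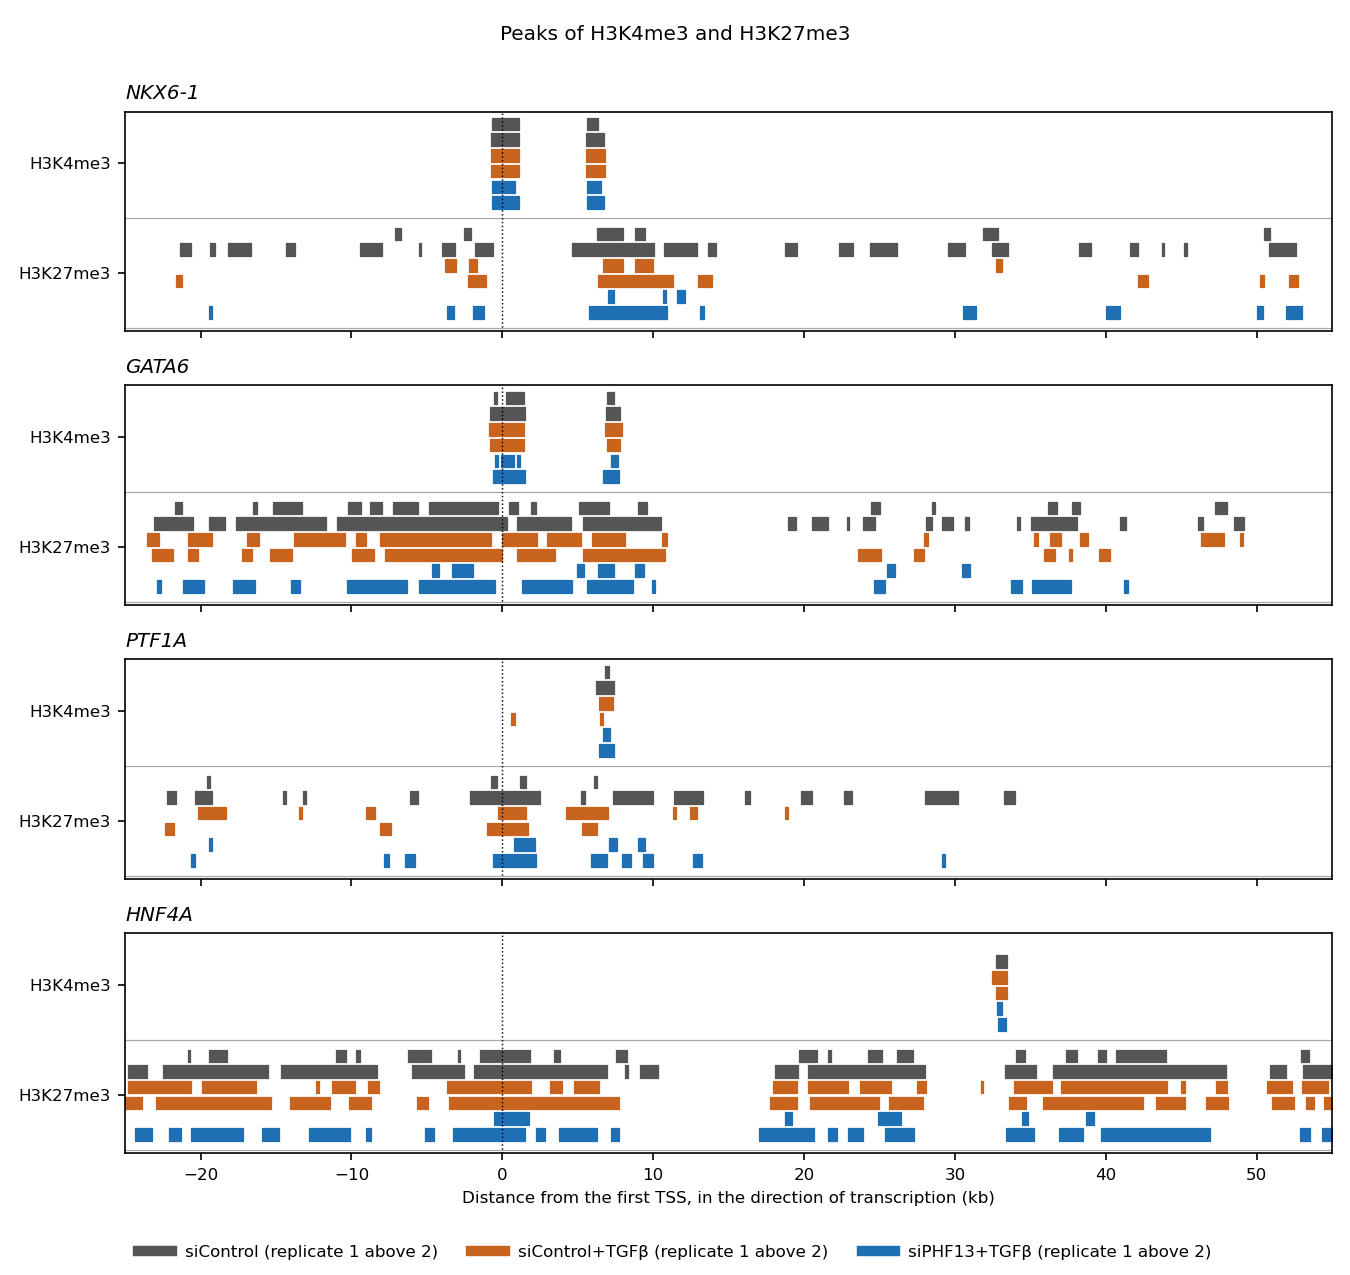
Peaks of H3K4me3 and H3K27me3 along NKX6-1, GATA6, PTF1A and HNF4A (x axis, distance from the first TSS in kb; y axis, 1 row per list), with colours for the groups and replicate 1 above replicate 2. H3K27me3 covers the upstream TSSs of HNF4A in all 6 lists and stops short of the TSSs of NKX6-1, and siPHF13+TGFβ replicate 1 has few and short peaks.

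The ranks set peak strength apart from covered length. Among these genes, ranks of H3K4me3 near the TSS were between 16.0% (PTF1A) and 89.6% (NKX6-1). For H3K27me3, HNF4A held ranks of 89.6% or more in every list, while those of PTF1A were between 16.1% and 87.3%. Ranks of H3K27ac near PDX1 and GATA4 were at most 38.2%, below every H3K27ac rank of SOX9 and FOXA2.

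**Figure D4:**
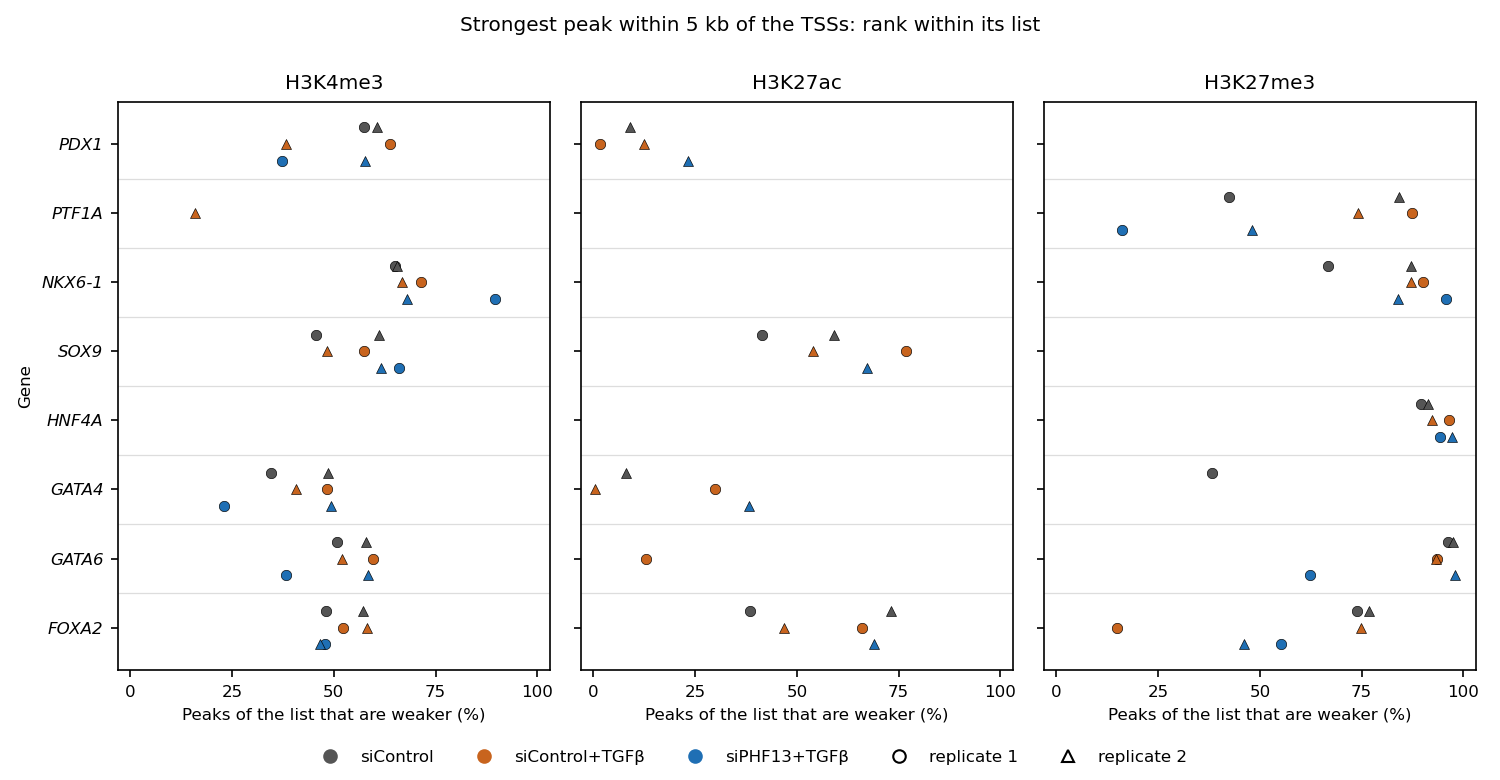
Rank of the strongest peak within 5 kb of the TSSs (x axis, percentage of peaks in the list that are weaker) for each gene (y axis) and list; colours are groups, circles replicate 1 and triangles replicate 2, and a list without a peak has no point. HNF4A is at 89.6% or more for H3K27me3, whereas PDX1 is at 23.2% or less for H3K27ac.

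It was then asked whether TGFβ changed these marks. Covered length of H3K4me3 was higher in siControl+TGFβ than in siControl at PDX1 by 756 bp (pooled SD 370 bp, n = 2) and at NKX6-1 by 359 bp (pooled SD 228 bp), without overlap of the libraries. Of all 15191 coding genes with H3K4me3 in at least 2 lists, 47.3% were higher and 2.09% lower without overlap, so 2 of the 6 genes tested is no more than the share among all genes. None of the 8 was lower. H3K27ac was higher without overlap at SOX9 by 1260 bp (pooled SD 791 bp) and at PDX1 by 130 bp (pooled SD 90.9 bp), 2 of the 4 tested, beside 55.5% of 12296 genes higher and 0.0569% lower. At PDX1 the closest libraries had 173 and 188 bp, in weak peaks that ranked above 8.9% and 12.5% of their lists. With the 50% strongest peaks of each list alone, the PDX1 difference in H3K4me3 turned to −652 bp and 0 of the 8 genes were higher without overlap in H3K27ac. H3K27me3 overlapped between these groups at all 5 genes tested, where 6.45% of 8171 genes were higher and 7.26% lower. The median difference over the 8 genes, those at 0 included, was 374 bp for H3K4me3, 116 bp for H3K27ac and 0 bp for H3K27me3, beside 107, 244 and 0 bp over all coding genes and 170, 454 and −67.5 bp over those tested.

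In the flanks, H3K27ac was higher without overlap at PDX1 (0 and 628 bp against 1551 and 717 bp), GATA4 (276 and 876 bp against 3005 and 1127 bp) and FOXA2 (196 and 172 bp against 965 and 393 bp). These were 3 of the 5 genes with flank H3K27ac in at least 2 lists, beside 58.2% of 12706 genes higher and 0.189% lower. H3K27me3 in the flanks overlapped at all 7 genes tested, with 2.19% of 14434 genes higher and 5.60% lower. The median difference in the flanks was 418 bp for H3K27ac, beside 394 bp over all coding genes and 844 bp over those tested. For H3K27me3 it was −2128 bp, beside −49.0 and −550 bp. The value of −2128 bp rested on the wide siControl replicate 2 list, without which it was 2796 bp.

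Depletion of PHF13 under TGFβ was examined in the same way. H3K4me3 was lower without overlap at NKX6-1 (2681 against 3146 bp, a difference of −465 bp with a pooled SD of 266 bp) and at GATA6 (1688 against 2281 bp, −593 bp with a pooled SD of 439 bp), 2 of the 6 tested, and 0 were higher. Beside these, 61.7% of all genes tested were lower and 0.296% higher without overlap. H3K27ac overlapped at all 4 genes tested, with 10.4% of genes lower and 0.0163% higher. None of them could be higher without overlap, because siPHF13+TGFβ replicate 1 was at 0 bp. H3K27me3 was lower without overlap at PTF1A (2202 against 3548 bp, −1347 bp with a pooled SD of 847 bp), 1 of the 5 tested, beside 29.4% of genes lower and 1.20% higher. Within 2.5 kb of the TSSs, it was GATA6 and not PTF1A that was lower without overlap in H3K27me3, and the share of all genes was not computed for that window. In the flanks, H3K27ac was lower without overlap at SOX9 (1704 and 1158 bp against 0 and 1042 bp), 1 of the 5 tested. Beside this, 6.19% of genes were lower and 0.0551% higher. H3K27me3 in the flanks was lower without overlap at HNF4A and GATA6 (17605 and 17797 bp against 3093 and 16288 bp at GATA6), 2 of the 7 tested. Beside these, 32.9% of genes were lower and 0.727% higher. Without bases near the TSSs of other coding genes, HNF4A had 48925 and 56742 bp against 6451 and 50146 bp, and its libraries overlapped. The median difference over the 8 genes was −328 bp for H3K4me3, −51.0 bp for H3K27ac and −349 bp for H3K27me3, beside −218, −275 and 0 bp over all coding genes and −288, −545 and −837 bp over those tested.

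The thin replicate 1 of siPHF13+TGFβ held the lowest value, or a tie for it, at 4 of the 7 genes with H3K4me3, 5 of the 5 with H3K27ac and 5 of the 6 with H3K27me3. For H3K4me3, siControl replicate 1 did so at 4 of the 7 as well. Without siPHF13+TGFβ replicate 1, the median difference for H3K4me3 was 36.8 bp, in the other direction. NKX6-1 and GATA6 for H3K4me3 and PTF1A for H3K27me3 stayed below both siControl+TGFβ lists. That was fixed in advance, because at these genes both siPHF13+TGFβ lists already lay below both siControl+TGFβ lists. The cover in replicate 2 was 2946 bp at NKX6-1, 2124 bp at GATA6 and 3042 bp at PTF1A, against 3123, 2234 and 3441 bp in the lower siControl+TGFβ list.

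**Figure D5:**
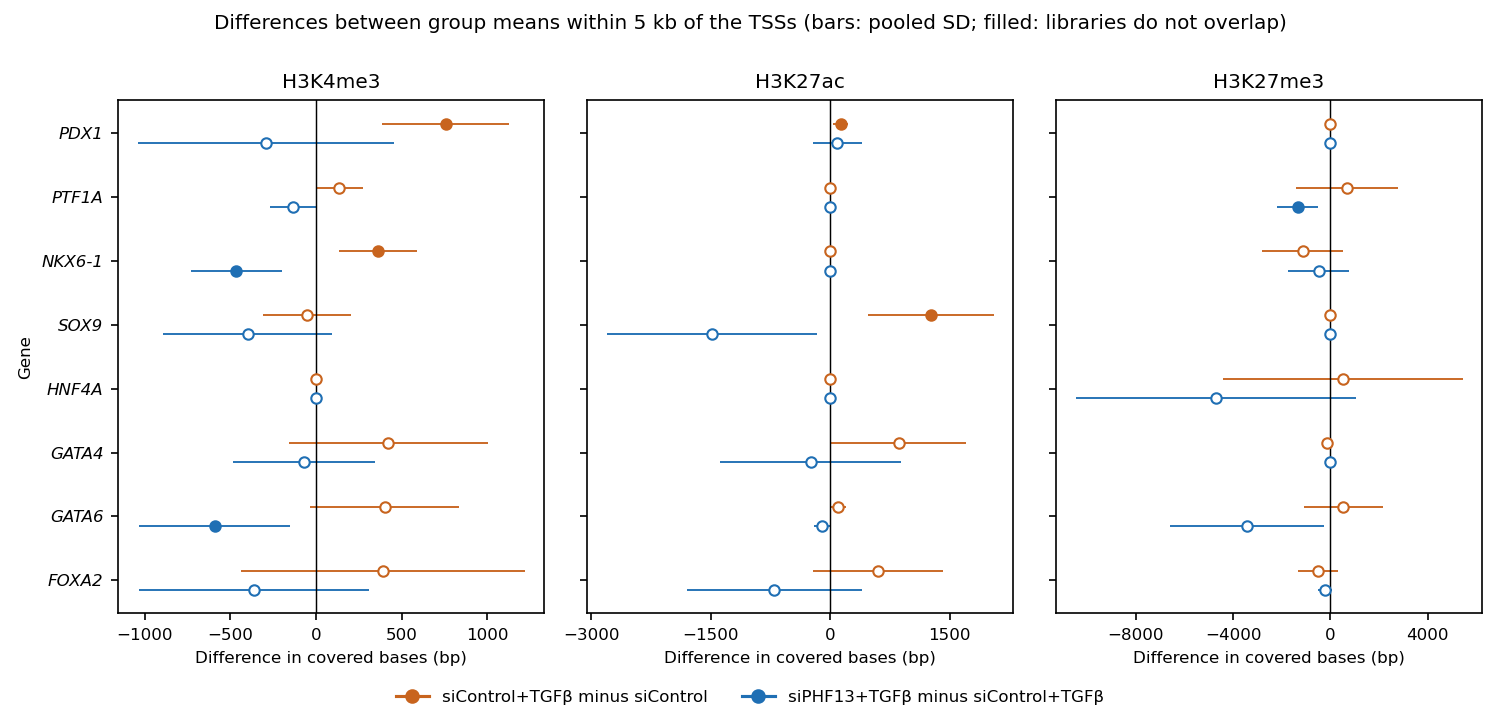
Differences between group means in bases covered within 5 kb of the TSSs (x axis, bp) for each gene (y axis), with the pooled SD of the groups as bars and filled points where the libraries do not overlap. Filled points for depletion lie below 0 (NKX6-1 and GATA6 for H3K4me3, PTF1A for H3K27me3), and those for TGFβ above 0.

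With 2 libraries against 2, an exact two-sided permutation test cannot go below p = 0.333, so the comparison was tested across all genes with limma on log2(bp + 200). None of the 8 genes passed a Benjamini-Hochberg adjusted p of 0.05 for any mark or comparison, and 0 had an unadjusted p under 0.05. In the limma fit of H3K4me3, adjusted p of the 6 genes tested was 0.87 to 0.98 for TGFβ and 0.41 to 0.93 for depletion. The log2 difference of NKX6-1 was 0.17 ± 0.13 (SE) for TGFβ and −0.22 ± 0.13 for depletion, beside medians of 0.12 and −0.21 over all genes tested. For H3K27ac, adjusted p by limma was 0.98 for TGFβ and 0.68 to 0.98 for depletion over 4 genes, with SOX9 at −1.96 ± 1.19 in the latter. For H3K27me3 it was 1 for TGFβ and 0.84 to 0.88 for depletion over 5 genes, with HNF4A at −1.11 ± 1.04. Across all genes, limma called 8 genes for H3K4me3 in each comparison, 0.0527% of those tested, higher with TGFβ and lower with depletion. It called 0% for H3K27ac (61 higher and 0 lower genes at an unadjusted p under 0.05 for TGFβ, 0 and 15 for depletion) and 0% for H3K27me3 (16 and 81, then 6 and 136). HNF4A and PTF1A for H3K4me3, and PTF1A, NKX6-1, HNF4A and GATA6 for H3K27ac, had too few lists with a peak to be tested.

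Other genes of pancreatic lineages were placed beside these. Of 18 further lineage factors, 14 had H3K4me3 and 12 H3K27me3 in all 6 lists, beside 72.7% and 21.9% of all coding genes. No list had H3K27ac at 13 of the 18, beside 35.4% of all coding genes. NR5A2, an acinar and progenitor nuclear receptor, had the most H3K4me3 (mean 3645 bp over the 6 lists), and PAX6, an islet factor, the most H3K27me3 (16703 bp). H3K27ac was highest at HES1, a Notch target (mean 1517 bp, 5 lists), HHEX, a homeobox factor of foregut endoderm (1133 bp, 5 lists), and FOXA3, a relative of FOXA2 (830 bp, 6 lists). Without overlap, 6 of the 18 were higher and 1 lower in H3K4me3 with TGFβ, and 8 were lower with depletion, beside the 47.3%, 2.09% and 61.7% of all genes given above. The ductal epithelial genes, which check the cell type, were divided in their marks. KRT8 had a mean of 3905 bp of H3K27ac, KRT19 2201 bp, MUC1 1877 bp and KRT18 1345 bp. H3K27ac was in all 6 lists at 4 of 9, beside 20.9% of all coding genes. It was in no list at 3 of the 9, beside the 35.4% given above. Of these, CFTR, a chloride channel of ducts, and CA2 had H3K27me3 in 6 lists, and SPP1 in 5. Summed over the 9 ductal genes, H3K27ac covered 7700 to 11416 bp in siControl, 12871 to 17532 bp in siControl+TGFβ and 1852 to 15867 bp in siPHF13+TGFβ. Of 7 acinar enzyme genes, 6 had neither H3K4me3 nor H3K27ac in any list, the exception being CELA3A. Among all coding genes, 22.1% had no H3K4me3 and 35.4% no H3K27ac in any list. PRSS1, trypsinogen, had the most H3K27me3 of the 7 (7458 bp). None of 4 islet hormone genes had H3K27ac, beside the same 35.4%, and INS and SST had H3K27me3 in 6 of 6 lists. Limma called 0 genes of any list for any mark, with at most 1 gene per list at an unadjusted p under 0.05.

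The genes whose cover was most like each member over the 18 lists were found by the mean absolute difference of covered bases. For GATA6 they were CDK5R2 (272 bp), EN1 (279 bp) and LEF1 (293 bp), each with H3K4me3 and with a mean H3K27me3 cover of 6900 to 7644 bp. For HNF4A they were RGS8 (200 bp), IL1RN (379 bp) and ADGRD1 (384 bp), all at 0 for H3K4me3 and H3K27ac. For SOX9 they were ACP7, FAM111A and PRKDC (107 to 113 bp), all without H3K27me3. For FOXA2 they were MEX3C, HNF4G and CHI3L2 (263 to 314 bp), for NKX6-1 EPB41, NDRG4 and GABRB1 (236 to 382 bp), and for PDX1 ARID5A, FRK and RASGRF2 (95.8 to 142 bp). For PTF1A they were TMEM235, SSX4B and MAGEA3 (78.2 to 158 bp), and for GATA4 PYGL, FBXL8 and PPP1R3B (143 to 150 bp).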

How the data were processed

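Peaks of H3K4me3, H3K27ac and H3K27me3 in PANC-1 cells were taken from 18 deposited lists, 1 per library. By the study's methods, the authors trimmed reads with Trim Galore 0.4.1, aligned them to hg19 with Bowtie2 2.4.1, removed duplicates with Picard and called peaks against input with MACS2 2.2.7.1, in broad mode for H3K27me3; deepTools 3.5.0 served for signal tracks. The 6 input samples were not analysed here. Each list as deposited by the authors gives a score, a fold enrichment over background (a ratio) and −log10 p and −log10 q values per peak. No reads per peak are given, so the depth behind each value is unknown and no counting interval was computed. The lowest −log10 q was 1.30 for H3K4me3 and H3K27ac, below the cutoff of 3 that the methods give, and some deposited lists are shorter than the numbers in the study.

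TSSs of protein-coding genes came from GENCODE release 44 mapped to GRCh37. Covered bases were counted within 5 kb of any TSS and from there to 50 kb in Python 3.11.15 with NumPy 2.4.6, figures drawn with Matplotlib 3.10.9 and sequences read with pysam 0.24.0. A longer list covers more bases at many genes, so covered length moves with list size. It can also grow with the summed window length, which was 20270 bp at HNF4A and 30075 bp at GATA4, against 10001 bp at PDX1. Genes with a mark in at least 2 of 6 lists were fitted with limma 3.58.1 (R 4.3.3) on log2(bp + 200), all 3 groups together, with Benjamini-Hochberg adjustment over all genes of the mark. Both comparisons share the siControl+TGFβ libraries. Groups did not overlap where both libraries of one were above both of the other, and pooled SD is the root mean square of the group SDs. Interval code was tested on simulated data. The named genes were the 8 members, the 3 most like each, at most 4 per lineage list by largest cover of the mark in question, coding genes within 50 kb and PHF13. Members and lists were chosen with earlier results of these data known. Regions and features described within the loci beyond these (lncRNA genes) were named after their values were seen. Promoter sequences of the other members are not reported here.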

Additional observations from a re-analysis of the deposited data

How the results depend on the processing

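For H3K4me3, limma called 8 genes in each comparison, and 0 with a pseudocount of 1000 bp, 0 with a peak required in all 6 lists, 5 with a peak in at least 1 list, 4 with lists of equal length and 0 to 0 without each library in turn. With the replicate number as a block, limma called 0 genes for every mark and comparison (at an unadjusted p under 0.05, 440 higher and 2 lower for H3K4me3 with TGFβ, and 1 and 1223 with depletion). Correlations of same-numbered deviations were −0.41 to 0.53, so the numbers were not taken to pair the samples. For H3K27ac with depletion, leaving out 1 library gave 0 to 9401 calls, the latter without siPHF13+TGFβ replicate 2.

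With TGFβ, the number of the 8 genes higher without overlap in H3K4me3 (2) was 1 with the 50% strongest peaks and 2 to 6 without each library, and the number lower (0) was 1 (SOX9) in 2.5 kb windows, 1 with equal lengths and 0 to 1 without each library. For H3K27ac the number higher (2) was 0 in 2.5 kb windows, 0 with the 50% strongest peaks, 0 with equal lengths, 1 (SOX9) with a −log10 q of at least 3, chosen after seeing the data, and 2 to 5 without each library. For H3K27me3 it was 0 to 4 higher and 0 to 5 lower without each library. With depletion, H3K4me3 was higher at 1 gene (SOX9) with the 50% strongest peaks and at 0 to 1 without each library, and lower at 2 to 5. H3K27ac was higher at 0 to 1 and lower at 0 to 4, and H3K27me3 higher at 0 to 1 and lower at 1 to 5. The 1 gene lower in H3K27me3 became 2 with the 50% strongest peaks and 2 with equal lengths. A single library left in a group makes non-overlap easier to reach. Shares over all coding genes were not computed for these settings, so these counts cannot be set beside them.

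Median differences in H3K4me3 were −15.5 bp (without siControl replicate 1) to 710 bp with TGFβ, and −801 to 36.8 bp (without siPHF13+TGFβ replicate 1) with depletion, where equal lengths gave 53.8 bp. In H3K27ac with TGFβ they were 0 to 181 bp, 0 with the 50% strongest peaks and 0 with equal lengths, as in the flanks (0 and 0). In the flanks with depletion, the H3K27ac median was −627 to 104 bp, above 0 without siPHF13+TGFβ replicate 1 and, at 4.75 bp, without siControl+TGFβ replicate 1. The H3K27me3 flank median was −12424 to 2796 bp with TGFβ (above 0 without siControl replicate 2) and −3672 to 1220 bp with depletion (above 0 without siPHF13+TGFβ replicate 1). The PDX1 difference in H3K4me3 with TGFβ was −652 bp with the 50% strongest peaks. The cause of these changes was not tested. Of 214 single-gene values under settings that keep every library, 19 had the opposite sign, among them PDX1 (554 bp) and SOX9 (210 bp) in H3K4me3 with depletion at equal lengths. Bases without a called peak count as 0, whatever their signal.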
